A study of Homo sapiens with 6 samples.

Results

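The genes examined were 9 receptor genes of the Wnt pathway: the Frizzled genes FZD2, FZD7, FZD10, FZD5 and FZD8, the ROR genes ROR1 and ROR2, and the co-receptor genes LRP5 and LRP6. Their β-catenin binding was read from 3 deposited peak lists, made from SA121, a human embryonic stem cell line, by chromatin immunoprecipitation and sequencing (ChIP-seq). Every peak that the authors' lists assign to 1 of the 9 genes was taken, at any distance from the transcription start site (TSS). This gave 21 of the 3126 peaks in the lists. FZD2, FZD7, FZD10, FZD8, ROR1, ROR2 and LRP6 had at least 1 peak, and FZD5 and LRP5 had none in any list.

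The cells were grown in DEF-CS medium and, once confluent, treated for 6 h in RPMI-1640 with CHIR99021 and SB431542 together (CHIR+SB) or with CHIR99021 alone (CHIR). The control samples are named RPMI, with the treatment given as mock. No agent is named for them, and their time in RPMI-1640 is not stated separately. CHIR99021 inhibits GSK3, the kinase that marks β-catenin for destruction, and SB431542 blocks signalling by activin, Nodal and TGFβ at their kinase receptors. Each condition had 1 library with an antibody to β-catenin and 1 with control goat IgG, and the DNA of parallel immunoprecipitations was pooled before each library was made. All results therefore rest on 1 library per condition of 1 cell line. Peak lists carry no expression values, so the cell type was not checked against its markers. There is no spread between replicates, and intervals given below cover counting error in the reads only.

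Frizzled proteins are multi-pass membrane receptors that bind secreted Wnt ligands through a cysteine-rich domain outside the cell. LRP5 and LRP6 are their co-receptors in the β-catenin branch: a Wnt bridges a Frizzled and an LRP, the destruction complex is inhibited, and β-catenin accumulates and enters the nucleus, where it joins TCF/LEF factors on DNA. ROR1 and ROR2 are receptor tyrosine kinase-like proteins that bind Wnt5a and act mainly in branches that do not use β-catenin. FZD7 is abundant in human embryonic stem cells and has a known part in keeping them undifferentiated. CHIR99021 acts downstream of all these receptors.

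No peak of the 9 genes lay within 1 kb of the TSS. Among all peaks, 14.5% did in CHIR+SB, 26.6% in CHIR and 55.0% in RPMI. The sequence just upstream of the start is shown for ROR1 and ROR2, the members of the ROR pair, because ROR1 had the peak closest to a start and the ROR2 window held the 1 TCF/LEF core found. The windows come from RefSeq (GRCh38.p14) and cover 250 bases before the start, whereas the peaks are in hg19, so the peaks were not placed on them. ROR1 is at chr1:63773767-63774016 (plus strand) and ROR2 at chr9:91950229-91950478 (minus strand). Capitals mark the core CTTTGT.
ROR1: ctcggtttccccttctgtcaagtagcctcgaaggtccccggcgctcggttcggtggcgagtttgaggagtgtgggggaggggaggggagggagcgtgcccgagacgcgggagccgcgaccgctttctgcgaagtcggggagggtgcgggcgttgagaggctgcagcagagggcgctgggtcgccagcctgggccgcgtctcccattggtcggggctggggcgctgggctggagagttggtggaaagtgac
ROR2: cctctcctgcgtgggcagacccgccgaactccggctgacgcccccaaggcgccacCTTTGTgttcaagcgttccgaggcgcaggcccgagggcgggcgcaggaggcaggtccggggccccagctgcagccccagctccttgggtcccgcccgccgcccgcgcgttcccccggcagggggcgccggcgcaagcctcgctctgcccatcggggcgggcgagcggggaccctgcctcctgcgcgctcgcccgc

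The search covered the cores CTTTGA and CTTTGT and the octamer ATGCAAAT, bound by OCT4, on both strands of windows of 300 bases, 250 before and 50 after the start. Of the 9 genes, ROR1, ROR2, FZD5, FZD8 and LRP5 matched an entry of the table. The ROR2 window held 1 CTTTGT, at position -195 from the start, and the other 4 windows held none of these letters. Either core was found in 26.2% of all 35116 windows and the octamer in 1.77%. The match in ROR2 is a description of letters and does not mark a binding site.

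The lists held 1813 peaks in CHIR+SB, 1053 in CHIR and 260 in RPMI. By the authors' scaling factors, the β-catenin libraries of CHIR+SB and CHIR had 1.14 and 1.67 times the depth of that of RPMI, and the IgG libraries 1.75 and 0.976 times. The lowest read count in a peak was 12 in CHIR+SB, 20 in CHIR and 15 in RPMI. A gene without a peak may still have reads, since the lists hold called peaks only.

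The 9 genes had 11 peaks in CHIR+SB, 9 in CHIR and 1 in RPMI. This is 0.607% of all peaks in CHIR+SB (exact 95% interval 0.303 to 1.08%), 0.855% in CHIR (0.392 to 1.62%) and 0.385% in RPMI (0.00974 to 2.12%). By genes, 5 of 9 had a peak in CHIR+SB, where 6.25% of 20052 protein-coding genes had one. In CHIR 5 of 9 had a peak, against 3.80% of protein-coding genes, and in RPMI 1 of 9, against 1.14%. The genes were chosen with earlier results of these data known, so these shares are set side by side without a test. Peaks less than 1 kb apart formed 10 sites, 5 upstream of their gene and 5 within it. Of the 10 sites, 1 was called in all 3 lists, 4 in CHIR+SB and CHIR, 3 in CHIR+SB alone and 2 in CHIR alone.

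FZD7 had the highest signal of the 9 genes, at sites 38.8 kb and 10.9 kb upstream of its TSS on chromosome 2. The distal site held a pair of peaks in both CHIR+SB and CHIR. In CHIR+SB the outer peak (chr2:202859769-202860167) had 20 reads and 6 IgG reads, and the inner one (chr2:202860813-202861215) had 29 and 13. In CHIR the outer peak (chr2:202859728-202860101) had 27 reads and 2 IgG reads, and the inner one (chr2:202860666-202861282) had 58 and 5. The inner peak was thus the higher of the pair with both treatments. Between the peaks lay 646 bp in CHIR+SB and 565 bp in CHIR.

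The proximal FZD7 site was 1 peak in CHIR+SB (chr2:202888195-202888814), with 34 reads and 13 IgG reads. In CHIR it was a pair of peaks only 68 bp apart (chr2:202887984-202888343 and chr2:202888411-202888806), with 33 and 34 reads and with 5 and 4 IgG reads. The count of FZD7 peaks, 3 in CHIR+SB and 4 in CHIR, therefore differs by how 1 stretch was divided, not by a site. RPMI had no FZD7 peak. Having 3 or more peaks in 1 list, as FZD7 had in CHIR+SB and CHIR and FZD2 in CHIR+SB, was uncommon. It was true of 0.229% of protein-coding genes in CHIR+SB, 0.0898% in CHIR and 0% in RPMI, and of 3.44%, 2.16% and 0% of the genes with any peak. These shares count called peaks, none merged into sites. By site, FZD7 had only the distal and the proximal one, and FZD2 only those 17 kb and 14 kb upstream. Shares of genes by number of sites were not counted. Normalized signal, the read count times 1 factor per library, was 27.6 at the distal site in CHIR+SB and 32.6 in CHIR, and at the proximal site 19.1 and 25.7. In the RefSeq table (GRCh38.p14) the nearest protein-coding neighbours of FZD7 are CDK15 and KIAA2012.

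**Figure D1:**
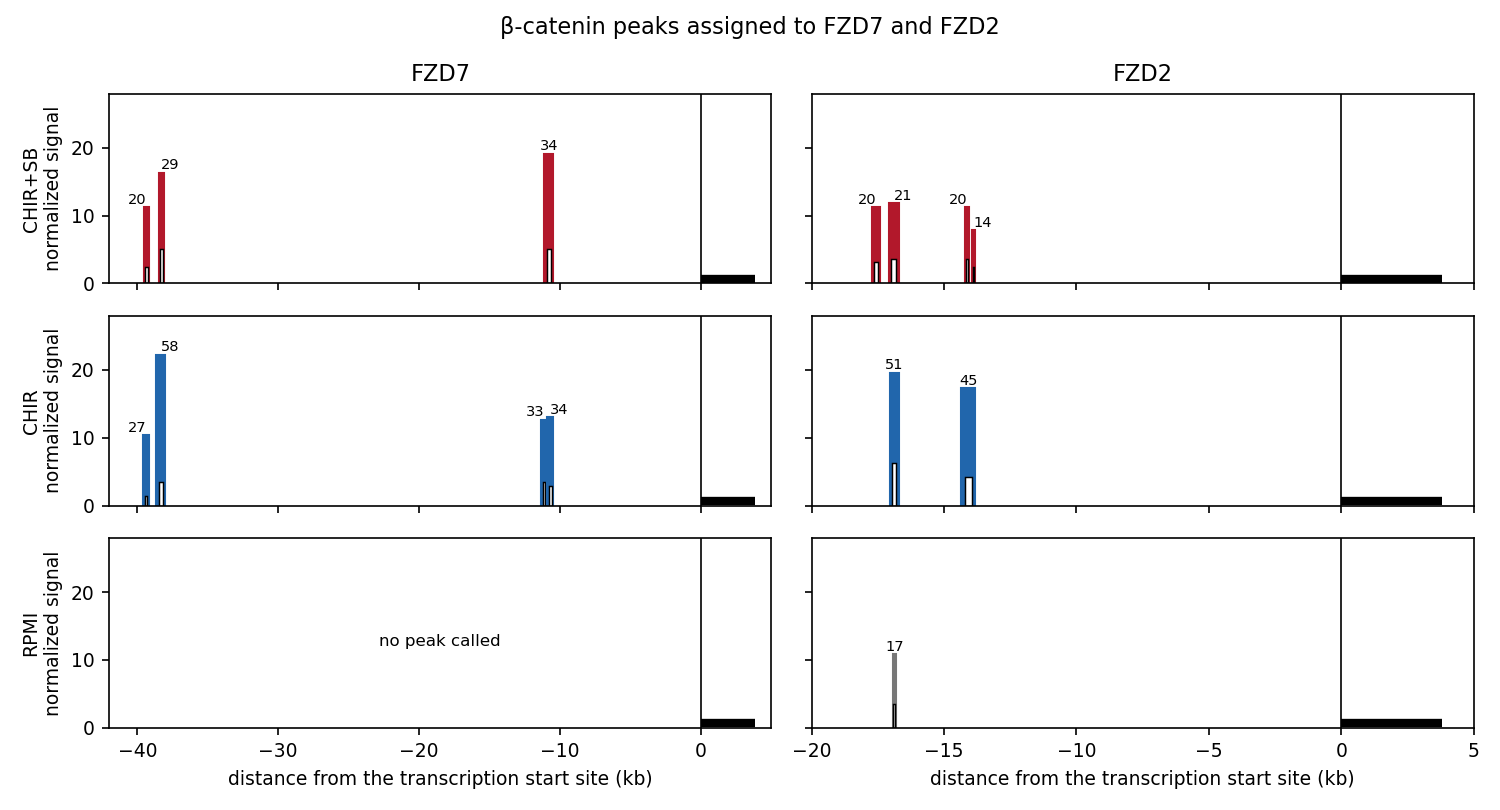
Normalized β-catenin signal of each peak assigned to FZD7 (left) and FZD2 (right) against its distance from the TSS in kb, for CHIR+SB (top), CHIR and RPMI; bar width is the called width, the number is the β-catenin read count, the white inner bar is the IgG signal in the same peak and the black block is the gene. FZD7 has a distal and a proximal upstream site in CHIR+SB and CHIR and no peak in RPMI, and FZD2 has a peak at 16.9 kb in all 3 conditions.

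FZD2 was the 1 member with a peak in RPMI, and its site about 17 kb upstream was called in all 3 lists. The peaks over this site in the 3 lists were centred 16.9 kb from the TSS on chromosome 17. There were 21 reads and 9 IgG reads in CHIR+SB (chr17:42617735-42618110), 51 and 9 in CHIR (chr17:42617756-42618100), and 17 and 5 in RPMI (chr17:42617869-42618005). The CHIR centre lay 9 bp from the RPMI centre and the CHIR+SB centre 14.5 bp from it. Normalized signal was 11.8 in CHIR+SB, 19.6 in CHIR and 10.9 in RPMI. CHIR+SB had a further peak at the same site, 17.6 kb from the TSS (chr17:42617105-42617405, 20 reads and 8 IgG reads).

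The second FZD2 site, 14.1 kb upstream, was called in CHIR+SB and CHIR. In CHIR+SB it was a pair of peaks (chr17:42620610-42620761 and chr17:42620873-42620984), with 20 and 14 reads and with 9 and 6 IgG reads. In CHIR it was 1 peak (chr17:42620464-42620999), with 45 reads and 6 IgG reads. The sum of signal over this site was 19.1 in CHIR+SB and 17.3 in CHIR. FZD2 lies between GPATCH8 and MEIOC in the RefSeq table.

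FZD10, FZD8 and FZD5 are the other Frizzled genes of the set. FZD10 had 1 peak, in CHIR (chr12:130649323-130649809), with 40 reads and 6 IgG reads. It lay within the gene, 2.56 kb from the TSS and 0.719 kb from the gene's end. Its signal of 15.4 ranked 318 among the CHIR peaks. No peak of CHIR+SB or RPMI overlapped it, whereas 78.1% of the 319 CHIR peaks within 20% of its signal overlapped a CHIR+SB peak. FZD8 had 1 peak, in CHIR+SB (chr10:36476786-36476973), with 14 reads and 4 IgG reads. It lay 547 kb upstream of the FZD8 TSS, and only the assignment in the authors' list ties it to FZD8. FZD5, which like FZD8 belongs to the FZD5/FZD8 subgroup of Frizzled receptors, had no peak.

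ROR1 had a peak close to its start in both CHIR+SB and CHIR. It had 21 reads and 10 IgG reads in CHIR+SB (chr1:64240995-64241370, 1.49 kb from the TSS) and 38 and 5 in CHIR (chr1:64240813-64241310, 1.37 kb from the TSS). Both lie inside the gene, downstream of the start. The normalized signal was 11.8 in CHIR+SB and 14.6 in CHIR. A second ROR1 peak, of 14 reads and 5 IgG reads, was called in CHIR+SB alone, 269 kb into the gene (chr1:64508766-64508880). ROR2, its paralog, had 1 peak, in CHIR (chr9:94648938-94649381), 63.3 kb into the gene, with 32 reads and 4 IgG reads. Its signal of 12.3 was near the CHIR median of 11.9, and 60.3% of the 390 CHIR peaks within 20% of its signal overlapped a CHIR+SB peak.

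Of the co-receptor genes, LRP6 had 1 peak, in CHIR+SB (chr12:12323557-12323702), 96.2 kb from the TSS within the gene, with 14 reads and 5 IgG reads. LRP5 had none. The LRP6, FZD8 and distal ROR1 peaks and 1 FZD2 peak all had 14 reads, the lowest count of any member peak in CHIR+SB. In that list 433 peaks had 14 reads and 6 had fewer. A CHIR peak overlapped 4.62% of those 433 peaks, and 9.54% of the 818 CHIR+SB peaks within 20% of the LRP6 signal. The 3 sites called in CHIR+SB alone thus lay at the low end of their list, while the 2 called in CHIR alone did not. Around the 7 genes with a peak, no list had a peak within 100 kb of the TSS that was assigned to another gene.

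**Figure D2:**
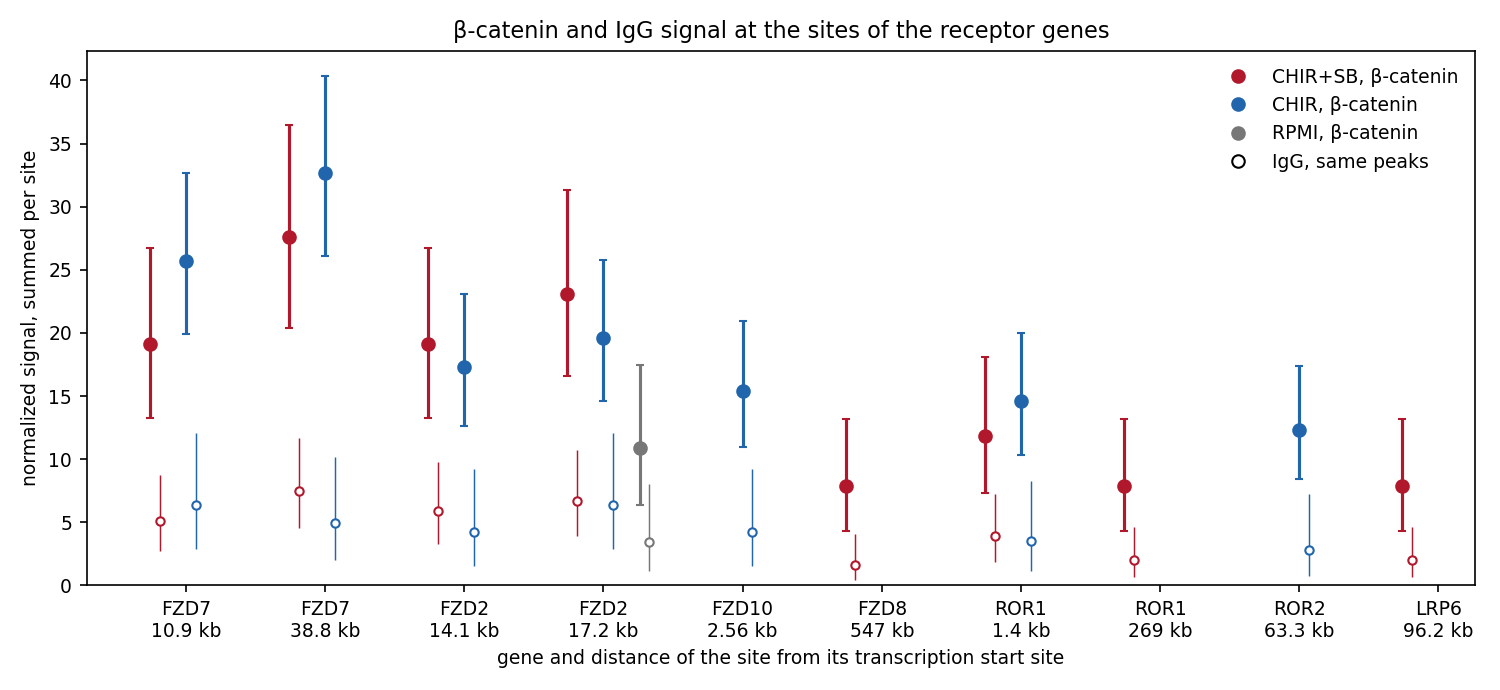
Normalized signal summed over the peaks of each site (filled points) and IgG signal in the same peaks (open points), with exact 95% Poisson intervals for counting error, by gene and distance from the TSS in kb, for CHIR+SB, CHIR and RPMI from left to right within a site. A condition without a point had no peak called there; FZD7 at 38.8 kb is the highest site, and FZD2 at 17.2 kb has points in all 3 conditions.

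The comparison of CHIR+SB with CHIR addresses how β-catenin binding differs when activin/Nodal receptors are blocked as well. Most receptor peaks of CHIR were found again in CHIR+SB. A CHIR peak lay over 7 of the 11 receptor peaks of CHIR+SB, and over 36.6% of all peaks of that list. Turned round, 7 of the 9 receptor peaks of CHIR had a CHIR+SB partner, as did 63.3% of the whole CHIR list. These were the peaks at FZD7, FZD2 and the ROR1 start. Some are parts of 1 site, and by sites 5 of 8 in CHIR+SB and 5 of 7 in CHIR were shared. The shares of the whole lists count peaks, and shares by site were not counted for them. At the shared sites the CHIR+SB signal was 0.844 times the CHIR signal at distal FZD7 (exact 95% interval 0.582 to 1.21) and 0.743 times at proximal FZD7 (0.477 to 1.14). It was 0.810 times at the ROR1 start (0.451 to 1.41), 1.18 times at FZD2 17 kb upstream (0.761 to 1.81) and 1.11 times at FZD2 14 kb upstream (0.688 to 1.77). The value at FZD2 17 kb upstream includes the 20 reads of the further CHIR+SB peak, which no CHIR peak overlapped. CHIR reads in that stretch were not counted, so this ratio compares unlike stretches. The peaks 16.9 kb upstream are compared on their own below. Each of the 5 site intervals includes 1, so a difference was not detectable at this depth.

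Where 1 peak of each list met, 4 pairs could be compared directly. The ratio of CHIR+SB to CHIR signal was 0.603 at FZD2 16.9 kb (0.345 to 1.02), 0.732 at the inner distal FZD7 peak (0.452 to 1.16), 0.810 at ROR1 (0.451 to 1.41) and 1.09 at the outer distal FZD7 peak (0.577 to 2.01). None of the 4 intervals excludes 1. Over all 642 such pairs the median was 1.00, and the interval lay above 1 in 6.70% and below 1 in 4.21% of pairs. With the reads of the 4 receptor pairs summed, the ratio was 0.766 (0.588 to 0.993). Summed over the 5 shared sites, which keeps the CHIR+SB peaks that met no single partner, it was 0.917 (0.756 to 1.11), and per base of called width it was 1.05.

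Called width moved these values. At the FZD2 site 17 kb upstream, 675 bp were called in CHIR+SB and 344 bp in CHIR, and the ratio of signal per base was 0.600 (0.388 to 0.923). At the FZD2 site 14 kb upstream, 262 bp were called in CHIR+SB and 535 bp in CHIR, and the ratio per base was 2.26 (1.40 to 3.61). The FZD2 sites thus went opposite ways per base, while the ratios of their summed signals were 1.18 and 1.11. At 17 kb the sum and the width include the further CHIR+SB peak, which no CHIR peak overlapped. The overlapping peaks there gave a ratio of 0.603 (0.345 to 1.02), or 0.553 per base. These intervals per base take called width as fixed, though it was set by peak calling. At the site 14 kb upstream, the pair of CHIR+SB peaks lay inside the span of the single CHIR peak. Whether binding density differed was not tested. At FZD7 and ROR1 the ratios per base were 1.04, 0.906 and 1.07, with intervals that include 1.

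**Figure D3:**
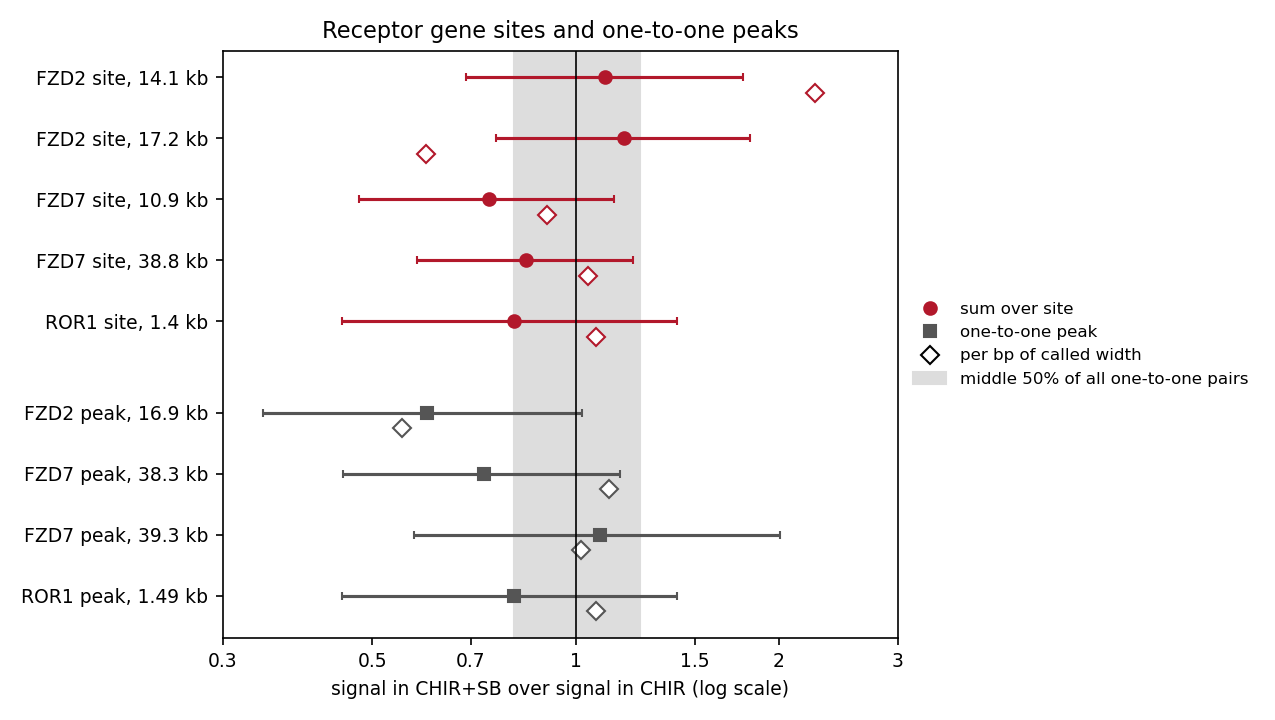
Signal in CHIR+SB over signal in CHIR on a log axis, for the 5 shared sites (circles) and the 4 one-to-one peaks (squares), with exact 95% intervals for counting error; diamonds give the same ratio per bp of called width, and the grey band is the middle 50% of all 642 one-to-one pairs. The intervals of all circles and squares include 1, and the diamonds of the FZD2 sites lie on opposite sides of 1.

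The comparisons with RPMI address where β-catenin is found once GSK3 is inhibited, and they share the RPMI library. FZD7, FZD10, ROR1 and ROR2 had peaks in CHIR and none in RPMI, and FZD7, FZD8, ROR1 and LRP6 had peaks in CHIR+SB and none in RPMI. The FZD8 and LRP6 peaks each had a signal of 7.88, below 9.61, the lowest signal in the RPMI list. Their absence from that list therefore does not show a difference from RPMI. FZD2 was called in all 3 lists. An RPMI peak overlapped 1 of 11 receptor peaks in CHIR+SB (8.77% of all peaks there) and 1 of 9 in CHIR (17.0%). The RPMI peak of FZD2 overlapped peaks of both other lists, as 61.5% of RPMI peaks did with CHIR+SB and 69.6% with CHIR. Its signal 16.9 kb upstream was 1.08 times the RPMI signal in CHIR+SB (0.545 to 2.19) and 1.80 times in CHIR (1.02 to 3.32). Among all one-to-one pairs, the interval lay above 1 in 8.55% and below 1 in 2.63% of 152 for CHIR+SB over RPMI, and above 1 in 16.1% and below 1 in 0.575% of 174 for CHIR over RPMI. The CHIR peak was 2.53 times as wide as the RPMI peak, and per base its signal was 0.711 times that of RPMI (0.404 to 1.31). With the further CHIR+SB peak at this site added, CHIR+SB signal was 2.12 times RPMI signal (1.18 to 3.97), over 4.96 times the called width. No RPMI peak overlapped that further peak, and RPMI reads in its stretch were not counted. This ratio therefore compares unlike stretches and does not show a gain over RPMI. Per base, CHIR+SB signal at the site was 0.427 times the RPMI signal (0.237 to 0.801), and for the CHIR+SB peak 16.9 kb upstream alone 0.393 times. The intervals per base take called width as fixed, though it was set by peak calling. Over all one-to-one pairs with RPMI, the median ratio per base was 0.877 for CHIR+SB and 0.894 for CHIR. The median width ratios were 1.21 and 1.36. Whether binding density differed was not tested.

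Signal over IgG at the receptor peaks was somewhat below that of their lists. Summed over the receptor peaks it was 3.59 in CHIR+SB (2.79 to 4.65), 4.24 in CHIR (3.11 to 5.89) and 3.16 in RPMI (1.12 to 10.97). Over all peaks it was 4.40, 4.92 and 4.51, and these values lie inside the intervals of the receptor peaks. By peaks, 9 of 11 in CHIR+SB, 7 of 9 in CHIR and the FZD2 peak in RPMI were below the median of their list, 4.29, 4.66 and 4.28. The highest value of a receptor peak was 7.35, at the outer distal FZD7 peak in CHIR, where it rests on 2 IgG reads (1.85 to 63.8). The lowest was 3.00, at the ROR1 start in CHIR+SB (1.35 to 7.14).

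By signal, receptor peaks were in the middle and upper part of the CHIR list and spread over the CHIR+SB list. Above the list median lay 7 of 11 in CHIR+SB and 8 of 9 in CHIR. At or above 9.61, the lowest signal in the RPMI list, were 7 of 11 in CHIR+SB and 9 of 9 in CHIR, against 48.2% and 70.4% of all peaks. The highest ranks were 187 of 1813 in CHIR+SB, for proximal FZD7, 121 of 1053 in CHIR, for the inner distal FZD7 peak, and 163 of 260 in RPMI, for FZD2. Peak positions were upstream for 8 of 11 receptor peaks in CHIR+SB and 6 of 9 in CHIR, where 38.5% and 42.9% of all peaks were upstream. These upstream peaks belong to FZD7, FZD2 and FZD8, and several are parts of 1 site. By sites over the 3 lists, 5 of 10 were upstream. More than 50 kb from the TSS were 3 of 11 receptor peaks in CHIR+SB, 1 of 9 in CHIR and 0 of 1 in RPMI, where 47.9%, 34.3% and 25% of all peaks were.

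**Figure D4:**
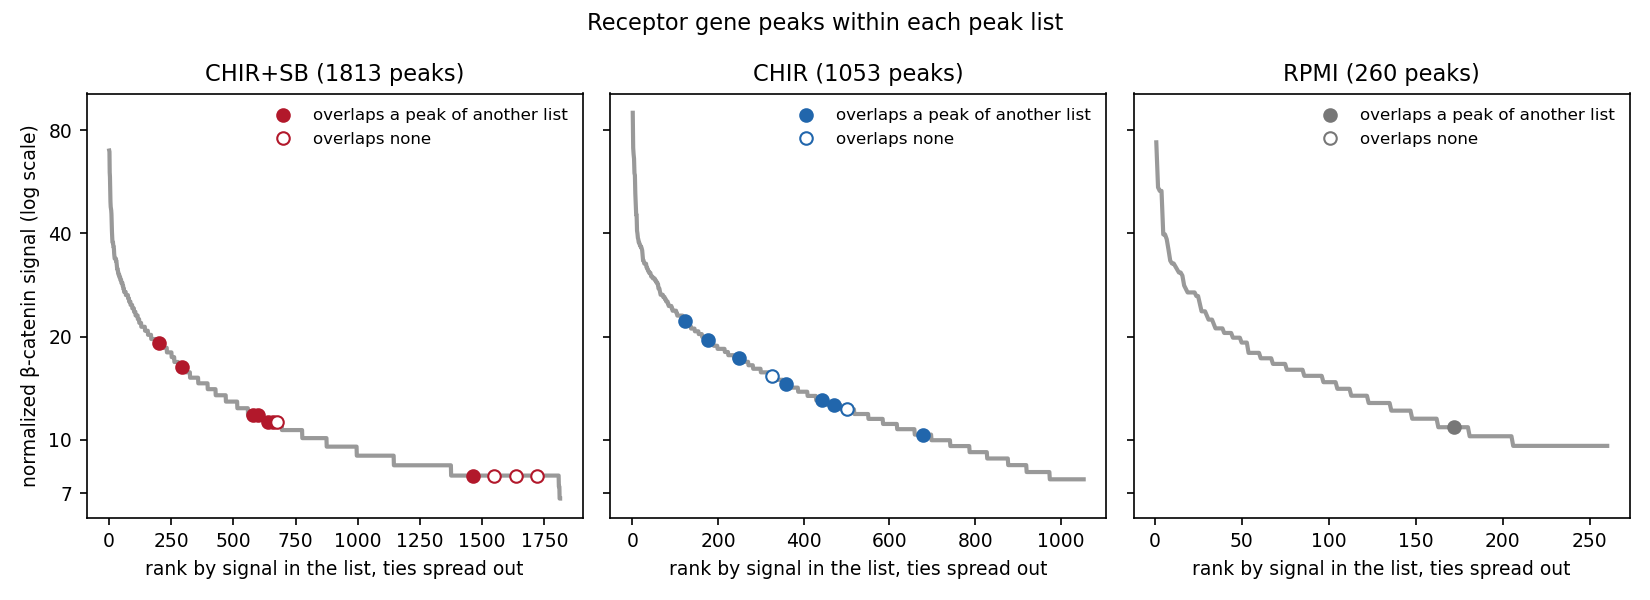
Normalized β-catenin signal (log axis) against rank for all peaks of the CHIR+SB, CHIR and RPMI lists (grey line), with receptor gene peaks as points, filled where they overlap a peak of another list and open where they overlap none. In CHIR+SB 4 receptor peaks sit on the step at 14 reads, 3 of them open; in CHIR 7 of 9 points are filled.

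Among 19 other genes of the receptor level, 3 had a peak in CHIR+SB, 2 in CHIR and 1 in RPMI, and 15 had none in any list. FZD1, a close relative of FZD2 and FZD7, had a site in all 3 lists, 91.4 kb from its TSS beyond the end of the gene on chromosome 7. It had 38 reads and 9 IgG reads in CHIR+SB, 50 and 4 in CHIR, and a pair of peaks in RPMI with 16 and 15 reads and with 1 and 3 IgG reads. The summed signal was 21.4 in CHIR+SB, 19.2 in CHIR and 19.9 in RPMI. The ratio of CHIR+SB to CHIR was 1.11 (0.710 to 1.73) and that of CHIR to RPMI 0.966 (0.605 to 1.57), with intervals that include 1. Per base of called width, signal was 0.471 times that of RPMI in CHIR+SB (0.286 to 0.783) and 0.455 times in CHIR (0.285 to 0.737), over 2.28 and 2.12 times the called width. These intervals too take called width as fixed. RNF43, a ubiquitin ligase that removes Frizzled receptors from the membrane, had 1 peak in CHIR+SB with 22 reads, 14.1 kb from its TSS. RECK, a membrane protein that presents Wnt7 to Frizzled receptors, had 1 peak of 14 reads in CHIR+SB, and the glypican gene GPC4 had 1 of 27 reads in CHIR. FZD3, FZD4, FZD6, FZD9, RYK, PTK7, MUSK, LGR4, LGR5, LGR6, ZNRF3, KREMEN1, KREMEN2, TSPAN12 and ADGRA2 had no peak.

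Among the 9 receptor genes, FZD7 and FZD2 had the most peaks, 7 each over the 3 lists. The genes most like each of them were ranked by the Euclidean distance of log2(summed signal + 1) over the 3 conditions. Nearest to FZD7 were AUTS2 (0.0760), RGMA (0.126) and PTCH1 (0.130), which also had no RPMI peak. Nearest to FZD2 were KCNJ2 (0.270), MIR4643 (0.287) and ADD3 (0.288), each with 1 RPMI peak. RPMI signal is part of the distance, so having or lacking an RPMI peak in common follows largely from the ranking. With 1 library per condition this likeness is a description of 3 values per gene.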

How the data were processed

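β-catenin and goat IgG ChIP-seq libraries were made from SA121 cells, per the labels. Bowtie and the builds hg19 and mm9 appear in the submitters' processing notes; the sources used here name no Bowtie version and no peak caller. Peak positions are in hg19. For each β-catenin library the authors deposited 1 peak list, with read counts in the β-catenin and IgG libraries within each peak and both counts times 1 factor per library (normalized signal), per the file headers. Counts were used as deposited, and decimal commas were read as points. Doses are left out, as nothing besides the labels gives their unit.

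Members were found by gene name. Overlap needed at least 1 bp. Ratios of signals carry exact 95% conditional binomial intervals, tested on simulated counts, and shares Clopper-Pearson intervals (Python 3.11.15, pandas 2.3.3, SciPy 1.17.1). The simulation did not use mean counts as low as the IgG reads of single receptor peaks. No p-value was computed, since each condition had 1 library. The members, the list of 19 other receptor genes and the tests were chosen with earlier results of these data known. All members were named, and of the other receptor genes and the most similar genes, those with a peak and the nearest 3. The RefSeq table (GRCh38.p14, names only) held 99.4% of gene names in CHIR+SB, 99.2% in CHIR and 100% in RPMI. Alternatives were a common signal minimum, the median of each list, a limit of 50 kb, other overlap rules, other scalings and signal per base. Peak sequences were not analysed here.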

Additional observations from a re-analysis of the deposited data

How the results depend on the processing

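The number of receptor peaks in CHIR+SB was 7 rather than 11 with the common signal minimum of 9.61 and also above the list's own median, and 8 within 50 kb of the TSS. The number of receptor genes with a peak in CHIR+SB was 3 rather than 5 under each of these 3 limits, since FZD8 and LRP6 dropped out. In RPMI the count of peaks and of genes was 0 above the list's median. CHIR kept 8 or 9 peaks and 4 or 5 genes. With peaks less than 1 kb apart counted as 1 site, a rule chosen after the data were seen, there were 8 sites in CHIR+SB, 7 in CHIR and 1 in RPMI. The overlap of CHIR with CHIR+SB was 7 peaks, or 5 when 50% of each peak had to be shared.

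The ratio of CHIR+SB to CHIR over the 4 one-to-one pairs, 0.766, was 0.905 per base, 0.697 after subtraction of IgG signal and 0.766 with the median of all pairs set to 1. It was 0.917 summed over shared sites and turned to 1.05 for these sites per base, both chosen after the data were seen. The FZD2 ratio of CHIR to RPMI, 1.80, turned to 0.711 per base, the CHIR peak being wider. With IgG scaled by the reads in all peaks, which by construction sets each whole list to 1, signal over IgG was 0.815 in CHIR+SB, 0.861 in CHIR and 0.701 in RPMI. Depth limits each ratio, as member peaks held 14 to 58 reads. No paired analysis was possible because each condition had 1 β-catenin library.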
